A study of Mus musculus with 29 samples.

Results

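Proteins secreted onto the surface of the gut form and repair its mucus layer, and 7 genes grouped under that name are described here: Gkn2, Tff3, Reg3g, Fcgbp, Vsig2, Clu and Spon2. All 7 had a probe on the arrays, 8 probes in all, and all were among the 16332 genes tested. They were chosen because their measured levels changed as endoderm cultures were passaged, so their levels in the passaging series are a description and carry no test. Gkn2 and Reg3g passed the filter on dim probes through the Mid and Late groups alone.

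The study asked how embryonic stem cells in naive pluripotency can be turned into endoderm that expands in culture. Messenger RNA of 29 mouse cultures, all male, was read on single-colour Agilent arrays. Mid and Late are such endoderm, called nEnd, at passages 7 to 10 and 14 to 15, and each replicate is its own round of differentiation and passaging. They came from Diff, stem cells held for 7 to 8 days in Activin, the inhibitor CHIRON and the cytokine LIF, and Diff came from ESC, kept in 2i (a pair of kinase inhibitors) and LIF. ESC, Diff, Mid and Late share one stem cell line, the double reporter HRHnG. XEN are standard extraembryonic endoderm cells of a line of their own. ADE is a 4-day differentiation to anterior definitive endoderm, made from EpiSC, which are primed epiblast stem cells derived from stem cells and grown as a stable culture; the labels write the line of both as HRHNG. NACL and 2iL are stem cells from 3 lines (E14, E14-NanogGFP and HVMC), adapted for at least 3 passages to Activin, CHIRON and LIF or to 2i and LIF. ADE and NACL have 4 arrays each and every other group has 3. Except for nEnd and for arrays of different lines in NACL and 2iL, nothing says that replicates were separate cultures. The p-values thus measure only the spread between these samples, which in NACL and 2iL includes differences between lines.

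The arrays fall into 2 sets. ESC, Diff, Mid, Late and XEN make up the first set of 15 arrays, and ADE, EpiSC, NACL and 2iL the second set of 14. Slides, scan days and software versions all differ between the sets, so no test was made across them. Values are log2 signals relative to the array's 75th percentile, so 0 is a fairly bright probe. The detection limit differs between arrays: a value of -5.56 was well above background on EpiSC 2, and one of -4.38 was not on NACL 2. Values near -7 are below it. The share of probes well above background ran between 49.2% and 79.7% over the arrays. The labelled states were checked with markers. All 6 markers of extraembryonic endoderm were well above background on every Diff, Mid, Late and XEN array, all 6 of anterior definitive endoderm on every ADE array, and all 5 of primed cells on every EpiSC array. All 5 stem cell markers were well above background on every ESC, 2iL and NACL array. These markers do not separate all the states: the 5 stem cell markers were also well above background on every Diff array, the 5 of primed cells on every ADE and NACL array, the 6 of extraembryonic endoderm on every ADE array, and the 6 of anterior definitive endoderm on every EpiSC array. Of 8 markers of gut epithelium, 5 were well above background on all Mid arrays, 6 on all Late arrays and 4 on all Diff arrays, while the intestinal cadherin Cdh17 was so on no array of any group. In the other groups the count was 6 for EpiSC, 4 for ESC and for ADE, 3 for XEN and for 2iL and 2 for NACL. These markers thus do not set Mid and Late apart from all other groups, and the cells are not called gut cells here.

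In the stomach and intestine, surface and goblet cells release gel-forming mucins together with small companion proteins that are resistant to digestion. Trefoil peptides such as Tff3 bind mucins and promote closure of wounds in the epithelium, and the gastrokine Gkn2 is secreted by the surface mucous cells of the stomach, where in humans it pairs with the trefoil peptide TFF1. Reg3g is a secreted lectin that kills Gram-positive bacteria, and Fcgbp is a very large mucus protein of goblet cells that binds trefoil peptides. Vsig2 is an immunoglobulin-type membrane protein known from stomach and colon, so its place under secreted proteins is by tissue only. Clu, clusterin, is an extracellular chaperone that many cell types secrete, and Spon2 is a matrix protein that recognises microbes in mice; neither is particular to the gut.

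The region just before the gene start could be read for 3 of the 7 genes, Gkn2, Reg3g and Fcgbp, from RefSeq on build GRCm38.p6. The sequences are shown because Gkn2 and Reg3g were well above background on all Mid and Late arrays and on no ESC or Diff array, while Fcgbp was already present in Diff. Each is the 250 bases before the start, 5′ to 3′ on the gene's strand, and capitals mark the motifs found. Gkn2 lies on the plus strand (chr6:87373115-87373364), Reg3g on the minus strand (chr6:78468875-78469124) and Fcgbp on the plus strand (chr7:28070986-28071235).
Gkn2: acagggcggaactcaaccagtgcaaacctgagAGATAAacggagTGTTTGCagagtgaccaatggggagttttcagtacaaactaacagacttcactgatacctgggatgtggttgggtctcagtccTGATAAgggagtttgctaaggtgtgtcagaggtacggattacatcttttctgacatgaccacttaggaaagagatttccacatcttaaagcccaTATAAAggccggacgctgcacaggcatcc
Reg3g: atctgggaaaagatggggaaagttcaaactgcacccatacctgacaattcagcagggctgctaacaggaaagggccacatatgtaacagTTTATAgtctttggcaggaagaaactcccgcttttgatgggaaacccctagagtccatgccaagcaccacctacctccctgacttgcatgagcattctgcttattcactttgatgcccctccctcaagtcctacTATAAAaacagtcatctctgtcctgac
Fcgbp: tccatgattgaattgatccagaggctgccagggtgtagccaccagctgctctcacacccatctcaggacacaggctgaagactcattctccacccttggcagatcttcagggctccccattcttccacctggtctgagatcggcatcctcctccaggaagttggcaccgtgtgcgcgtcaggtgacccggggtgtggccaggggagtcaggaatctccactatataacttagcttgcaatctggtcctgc

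Each region was searched on both strands for the GATA motif (AGATAA or TGATAA), the forkhead motif (TGTTTNC), the STAT motif (TTCNNNGAA) and the TATA box (TATAAA). These motifs did not overlap each other in any of the 3 regions. Gkn2 held GATA letters starting at base -218 and base -123, a forkhead match at -206 and a TATA box at -29. Reg3g held a TATA box at -27 and another, on the opposite strand, from -161 to -156. Fcgbp held none of the 4 motifs in these exact letters, and none of the 3 genes held the STAT motif. Other spellings were not searched, such as the letters TATATAA near the end of the Fcgbp region, so a TATA box is not excluded there. Over 32851 promoter regions of the same length, 16.6% held a GATA motif, 17.8% the forkhead motif, 7.02% the STAT motif and 12.4% the TATA box. A match describes letters in this window and says nothing about a factor being bound.

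Gkn2 was below the detection limit everywhere except in expanded nEnd. It was well above background on no array of ESC or Diff, read 0.92, 1.08 and 2.30 on the 3 Mid arrays, and 2.28, 1.25 and 2.22 on the 3 Late arrays. No Mid or Late array overlapped any array of another first-set group, and the Mid and Late arrays overlapped each other. Against Diff, Gkn2 was at least 73.0-fold higher in Mid and at least 102-fold higher in Late. A bound is given because the lower group had no array well above background, and its arrays were set at the dimmest signal well above background, or at their own value where that was larger. In bulk RNA, more cells with a transcript and more transcript per cell cannot be told apart.

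Tff3 followed a different course, present in Diff already and highest in Mid. Along the series, 1 of 3 ESC arrays was well above background (mean -5.02 ± 1.25, SD, n = 3), the Diff arrays read 0.62, -2.08 and -2.66, the Mid arrays 5.44, 3.38 and 3.95, and the Late arrays 2.04, 2.08 and 1.65. Every Mid array was above every Diff array, and every Late array was below every Mid array but above every Diff array. The means differed by 5.63 log2 units for Mid minus Diff and by -2.33 for Late minus Mid. Diff 1 stood far above Diff 2 and Diff 3; without it, Mid minus Diff for Tff3 was 6.63.

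Reg3g, like Gkn2, was well above background on no ESC or Diff array. Mid arrays read 0.57, -0.82 and 1.48, and Late arrays -1.45, -1.93 and -2.22. All were well above background, and every Late array was below every Mid array, by 2.28 log2 units between the means. Against Diff, Reg3g was at least 35.9-fold higher in Mid and at least 7.40-fold higher in Late. Gkn2 showed no such fall: its Late minus Mid difference was 0.48, within the spread of the Mid arrays (SD 0.76).

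Fcgbp and Vsig2 took their larger step before passaging, with Diff minus ESC differences of 5.30 for Fcgbp and 4.61 for Vsig2. For Fcgbp only 1 of 3 ESC arrays was well above background, so the size of its first step depends on how background is handled. By another background correction, normexp, its Diff minus ESC difference was 2.30 and its Mid minus Diff difference 2.14. The ESC arrays of Fcgbp averaged -5.03 ± 1.02, the Diff arrays 0.27 ± 0.65, the Mid arrays 2.65 ± 0.23 and the Late arrays 2.23 ± 0.40 (SD, n = 3 each). Its Diff arrays, at 1.01, -0.02 and -0.19, lay above every ESC array and below every Mid array, at 2.63, 2.43 and 2.89. The Late arrays of Fcgbp, at 1.95, 2.68 and 2.06, overlapped those of Mid.

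For Vsig2 the ESC mean was -1.91 ± 0.19, the Diff mean 2.69 ± 1.36, the Mid mean 4.34 ± 0.37 and the Late mean 3.81 ± 0.46 (SD, n = 3 each). Its Diff arrays read 4.26, 1.98 and 1.83, so that Diff 1 lay inside the Mid range of 3.92 to 4.60 and the others well below it. Without Diff 1, Mid minus Diff for Vsig2 was 2.43 instead of 1.65. The dimmer of its 2 probes gave the same order for the means, with -3.67 for ESC, -0.55 for Diff, 1.08 for Mid and 0.64 for Late, but with every Late array below every Mid array.

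Clu and Spon2 behaved as a second pair, flat from ESC to Diff and then high. Clu read 0.88, 1.01 and 0.76 on the ESC arrays, 1.99, 0.75 and 0.52 on the Diff arrays, 7.82, 7.34 and 7.02 on the Mid arrays and 7.69, 6.62 and 7.45 on the Late arrays. The Mid and Late arrays overlapped each other and lay far above all ESC and Diff arrays, and the Mid minus Diff difference was 6.31. Spon2 read -3.16, -3.33 and -3.89 with ESC, -2.25, -3.18 and -3.39 with Diff, 2.42, 2.39 and 2.78 with Mid and 2.97, 2.50 and 2.87 with Late. Here too Diff overlapped ESC, Late overlapped Mid, and the step between the pairs was 5.47 for Mid minus Diff.

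**Figure D1:**
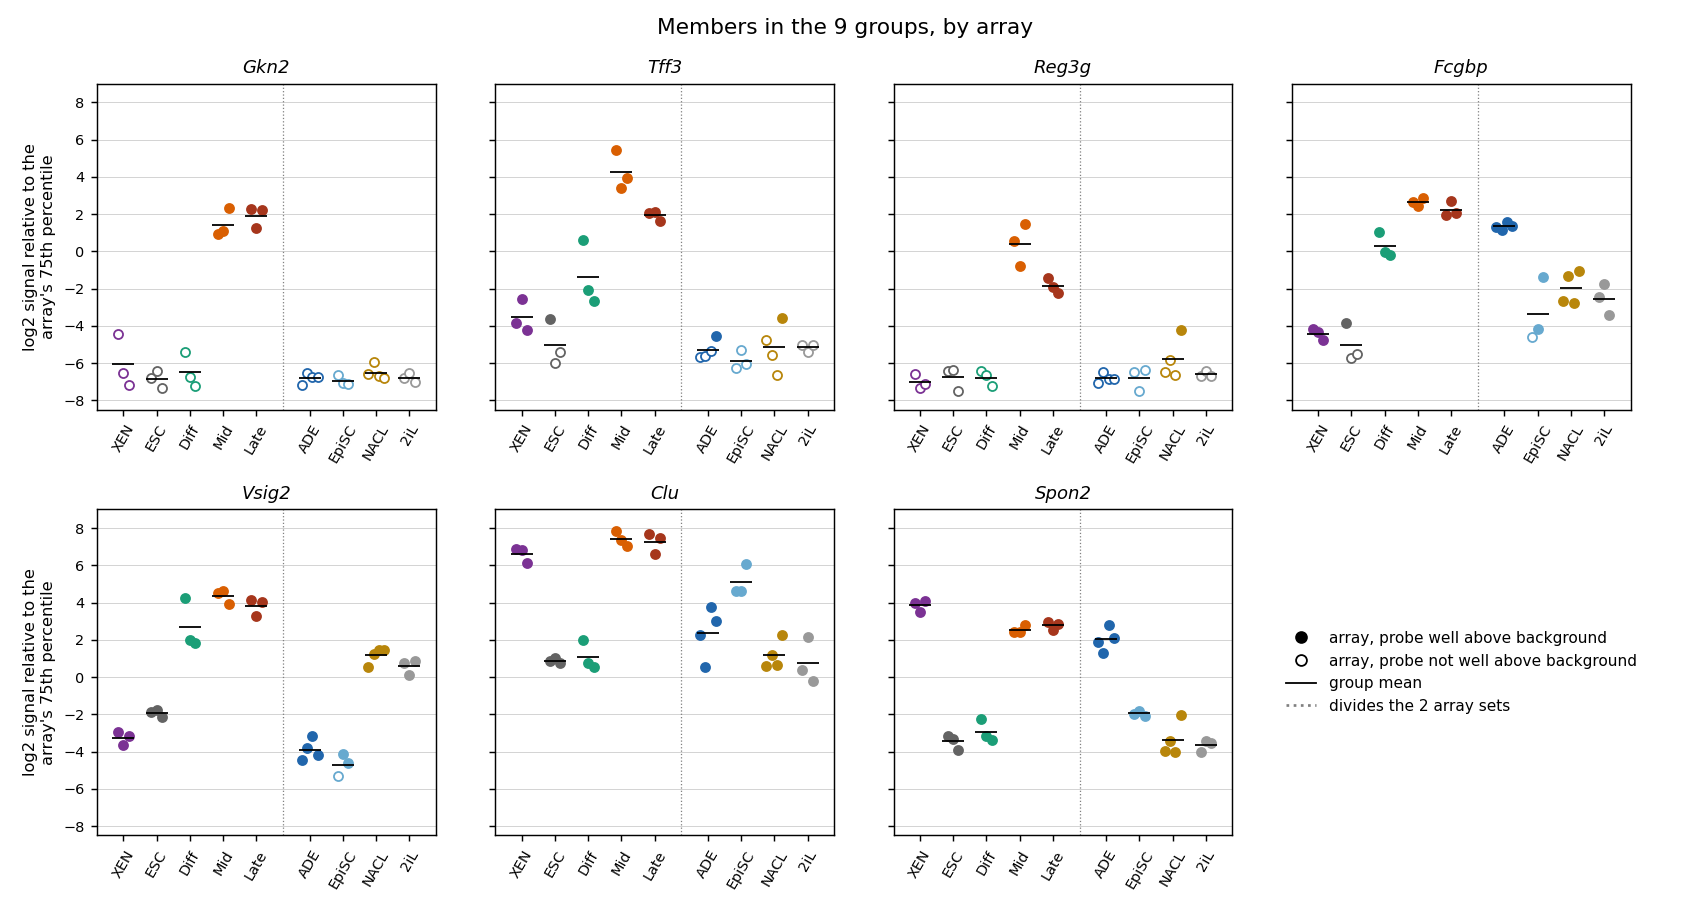
Log2 signal relative to the array's 75th percentile (vertical axis) for each of the 7 genes in the 9 groups (horizontal axis), 1 point per array; open points are arrays on which the probe was not well above background, bars are group means and the dotted line divides the 2 array sets. Filled points for Gkn2 appear in Mid and Late alone, Tff3 and Reg3g are lower in Late than in Mid, and Clu and Spon2 are high in XEN as well as in Mid and Late.

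The plot of members by array shows which steps of the series each gene took. From ESC to Diff, 3 of the 7 genes (Tff3, Fcgbp and Vsig2) had every Diff array above every ESC array, which held for 27.1% of all genes tested. From Diff to Mid, 6 of 7 had every Mid array above every Diff array, against 18.4% of all genes, Vsig2 being the exception. In Late, the same was true of 6 of 7 relative to Diff, against 23.4%, and 2 of 7, Tff3 and Reg3g, had every Late array below every Mid array, against 12.2%. The genes were chosen on these steps, so nothing is read from those shares.

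Diff 1 was the highest of the 3 Diff arrays for 7 of the 7 genes. Within slide 1, which held Mid 1 and Diff 1, the Mid minus Diff difference was 4.82 for Tff3, 5.83 for Clu, 4.67 for Spon2, 1.62 for Fcgbp and 0.24 for Vsig2. Within slide 3, which held Mid 2 and Diff 2, it was 5.46 for Tff3, 6.59 for Clu, 5.57 for Spon2, 2.45 for Fcgbp and 2.62 for Vsig2. All 5 were positive on both slides, with Vsig2 the smallest on slide 1. Gkn2 and Reg3g were below background on both of these Diff arrays, so no exact difference is given for them. With slide as a block, Mid minus Diff was 5.38 for Tff3, 6.22 for Clu, 5.49 for Spon2, 2.25 for Fcgbp and 1.67 for Vsig2. For Gkn2 and Reg3g the fitted difference is no bound and depends on how background is handled: by normexp correction it was 3.48 for Gkn2 and 2.58 for Reg3g, where the values used here gave 7.90 for Gkn2 and 7.19 for Reg3g.

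Expanded nEnd and XEN cells both carried the markers of extraembryonic endoderm, and the 7 genes split between them. The 6 nEnd arrays, Mid and Late together, lay above every XEN array for 5 of the 7 genes (12.8% of all genes) and below it for 1, Spon2 (18.1%). Gkn2 was well above background on no XEN array and was at least 92.2-fold higher in nEnd, and Reg3g at least 17.4-fold higher. Tff3 was well above background on every XEN array but low, at -3.83, -2.55 and -4.22, so that nEnd exceeded XEN by 6.62 log2 units between the means.

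Fcgbp, at -4.17, -4.34 and -4.78 in XEN, was 6.87 log2 units higher in nEnd, and Vsig2, at -2.95, -3.64 and -3.19 in XEN, 7.33 higher. Clu, by contrast, read 6.85, 6.84 and 6.13 in XEN, within reach of the Late arrays, and nEnd minus XEN was 0.72. Spon2 was the one gene with its highest levels in XEN, at 3.95, 3.51 and 4.06, and nEnd minus XEN was -1.19. These differences are also descriptions, since nEnd enters them.

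For Clu the order of first-set means was Mid, Late, XEN, Diff and ESC, and neighbours overlapped at each place except between XEN and Diff, where every XEN array was above every Diff array. For Spon2 the order was XEN, Late, Mid, Diff and ESC, with overlap between Late and Mid and between Diff and ESC. Tff3 and Fcgbp shared one order, Mid, Late, Diff, XEN and ESC; XEN and ESC overlapped for both genes, Diff and XEN for Tff3, and Late and Mid for Fcgbp. Vsig2 had its lowest first-set levels in XEN, below every ESC array, though by its dimmer probe these groups overlapped.

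The genes were picked for their course through Diff, Mid and Late, and 4 comparisons without those groups were tested with limma over all 16332 genes, although the choice was made with results of all groups known. XEN minus ESC asks which of the genes are part of extraembryonic endoderm as an established line. XEN and ESC are of different lines, so state and line cannot be told apart in it. Clu and Spon2 were higher in XEN and Vsig2 was lower, against a background of 29.4% of all genes called higher and 22.5% called lower at an adjusted p under 0.05. Spon2 differed by 7.30 ± 0.41 (SE; adjusted p = 1.15e-12) and Clu by 5.72 ± 0.66 (SE; adjusted p = 1.28e-07), with every XEN array above every ESC array for both. Vsig2 fell by 1.34 on the log2 scale (SE 0.47, adjusted p = 0.0197), with every XEN array below every ESC array. That call was lost with median centring (-0.65, adjusted p = 0.244), with quantile normalization (-0.82, 0.140), with normexp (-0.47, 0.327) and with the authors' series matrix (-0.25, 0.644), as well as without ESC 2 (0.0575) or XEN 2 (0.0726); its dimmer probe gave -0.94 (adjusted p = 0.144).

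Tff3 and Fcgbp were low in both groups and did not pass the test. Tff3 averaged -3.53 ± 0.88 in XEN and -5.02 ± 1.25 in ESC (SD, n = 3 each), a difference of 1.48 with a 95% interval from -0.10 to 3.07 (adjusted p = 0.111), and 1 of 3 ESC arrays was well above background. Tff3 passed the threshold with median centring (2.17, adjusted p = 0.00753), with quantile normalization (2.11, 0.00957) and without ESC 1 (2.18, 0.0311). Fcgbp differed by 0.60 (95% interval -0.71 to 1.92, adjusted p = 0.444). Within slide 3, the only slide with both groups (1 XEN and 2 ESC arrays), the differences were 6.75 for Spon2, 5.89 for Clu and -1.83 for Vsig2, and with slide as a block 7.18, 5.60 and -1.64.

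ADE minus EpiSC asks whether endoderm of the definitive kind, made from primed cells, carries the same genes. Fcgbp and Spon2 were higher in ADE and Clu was lower, against backgrounds of 16.7% higher and 21.2% lower. Fcgbp read 1.28, 1.15, 1.59 and 1.33 on the ADE arrays, against -4.58, -4.17 and -1.40 on the EpiSC arrays, of which 2 of 3 were well above background. The difference was 4.72 ± 0.59 (SE; adjusted p = 1.30e-06), and EpiSC 3 was much the highest EpiSC array. Spon2 read 1.89, 1.29, 2.78 and 2.11 in ADE, against -1.96, -1.83 and -2.07 in EpiSC, a difference of 3.97 ± 0.38 (SE; adjusted p = 2.87e-08). Neither gene's groups overlapped.

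Clu went the other way. It read 2.28, 0.53, 3.75 and 3.00 in ADE, against 4.62, 4.59 and 6.06 in EpiSC, so every ADE array was below every EpiSC array (-2.70 ± 0.62, SE; adjusted p = 0.00124). Clu was thus higher in XEN than in its stem cell comparison and lower in ADE than in its own; the difference between these 2 contrasts, which lie in different array sets, was not tested. Vsig2 was low in both, averaging -3.91 ± 0.55 in ADE (SD, n = 4) and -4.71 ± 0.60 in EpiSC (SD, n = 3), with a difference of 0.80 (95% interval -0.11 to 1.71, adjusted p = 0.167). Tff3 was well above background on 1 of 4 ADE arrays and on no EpiSC array, and Gkn2 and Reg3g on none of either. Within slides 5 and 6 the differences were 5.80 and 4.24 for Fcgbp, 3.55 and 4.39 for Spon2 and -3.22 and -1.95 for Clu. With slide as a block they were 4.80 for Fcgbp, 4.09 for Spon2 and -2.57 for Clu.

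EpiSC minus 2iL sets primed against naive cells, but of different lines. The labels write HRHNG for every EpiSC array, and HVMC, E14 and E14-NanogGFP for 2iL, so state and line cannot be told apart. Clu and Spon2 were higher in EpiSC and Vsig2 was lower, with 21.1% of all genes called higher and 20.9% lower. Vsig2 read -5.34, -4.15 and -4.64 in EpiSC, where 2 of 3 arrays were well above background, against 0.73, 0.13 and 0.87 in 2iL (-5.29 ± 0.47, SE; adjusted p = 5.15e-09). Its dimmer probe put every EpiSC array below every 2iL array too, but by -0.92 only (adjusted p = 0.177), so the size of this difference rests on 1 probe. Clu read 4.62, 4.59 and 6.06 in EpiSC, against 0.36, 2.16 and -0.23 in 2iL (4.33 ± 0.66, SE; adjusted p = 1.23e-05).

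Spon2 differed by 1.72 ± 0.41 (SE; adjusted p = 0.0015) between EpiSC and 2iL, with no overlap, and the call was lost by normexp correction (0.52, adjusted p = 0.124). Fcgbp differed by -0.83 (95% interval -2.14 to 0.49, adjusted p = 0.324) and passed the threshold without EpiSC 3 (-1.82, adjusted p = 0.0113). Tff3, Gkn2 and Reg3g were well above background on no array of either group. Within slides 5 and 6 the differences were 3.37 and 5.56 for Clu, 1.77 and 1.59 for Spon2, and -5.77 and -5.27 for Vsig2. With slide as a block they were 4.06 for Clu, 1.47 for Spon2 and -5.47 for Vsig2. Of 5 fibroblast markers, all 5 were well above background on every EpiSC array, against 3 on every 2iL array, and their summed level ran from 3.80 to 4.28 in EpiSC, against 0.62 to 1.31 in 2iL. Its part in the differences of Clu and Spon2 was not tested. In ADE that sum ran from 1.67 to 3.98, overlapping EpiSC.

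NACL minus 2iL is the comparison closest to the medium of the Diff step, since NACL cells were kept as stem cells in the same 3 factors. By limma, 0 of the 6 genes measured in at least 1 of the groups were called, and 0 passed an unadjusted p under 0.05, while 8.5% of all genes were called in either direction. The 95% interval of the difference was -0.30 to 1.52 for Vsig2, -0.63 to 1.83 for Fcgbp and -0.87 to 1.69 for Clu, and for Spon2 the difference was 0.31 (adjusted p = 0.738). Reg3g was well above background on 1 of 4 NACL arrays, NACL 4, at -4.22. That array was the highest NACL array for 6 of the 7 genes and also had the largest share of probes well above background of all arrays, and the part of its depth in these values was not tested. Fcgbp read -2.68, -1.35, -2.76 and -1.04 in NACL, against -2.48, -1.77 and -3.42 in 2iL, and the groups overlapped. Both groups hold the same 3 lines, and with cell line as a block, on these arrays alone, 0 of 6 were called. Vsig2 was higher in NACL within 3 of 3 lines, by 1.33 in E14, 0.60 in E14-NanogGFP and 0.18 in HVMC, and with that block its difference was 0.65 ± 0.31 (SE; limma adjusted p = 0.391).

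**Figure D2:**
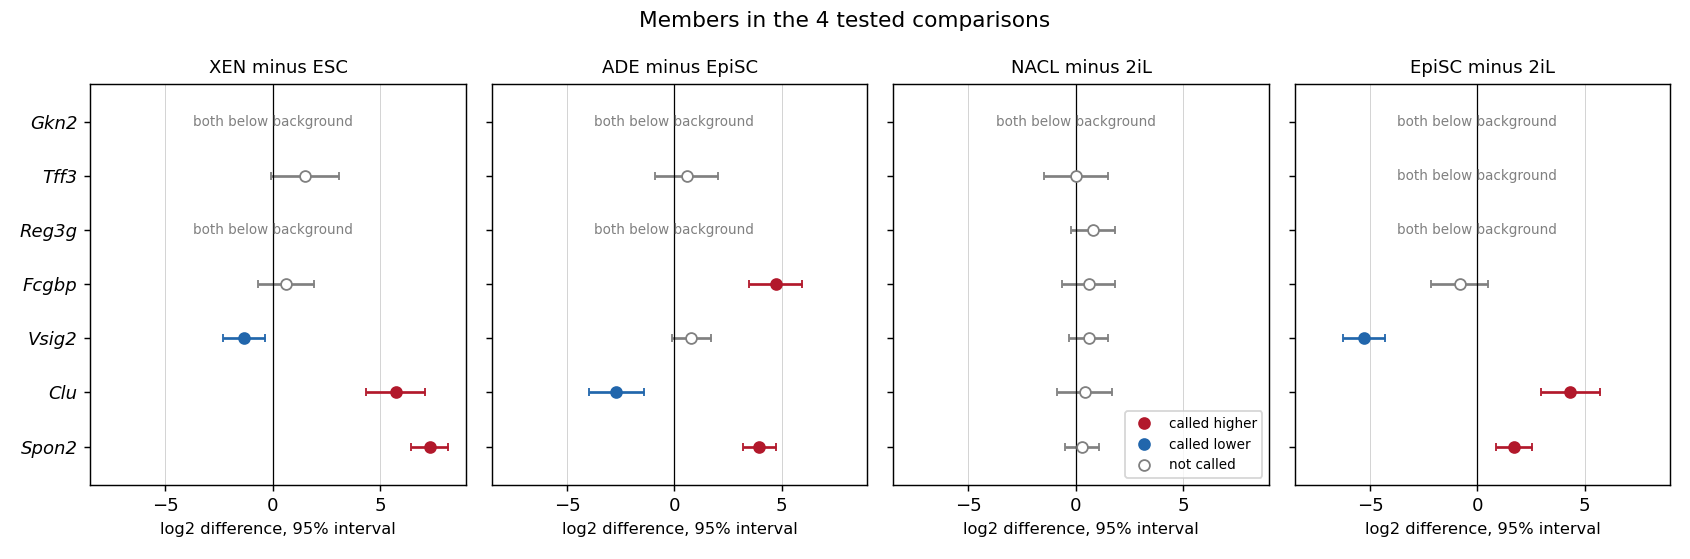
Log2 difference with its 95% interval (horizontal axis) for each of the 7 genes (vertical axis) in the 4 tested comparisons; red points were called higher, blue points lower, and open points were not called. Spon2 and Clu lie far to the right in XEN minus ESC, Fcgbp and Spon2 in ADE minus EpiSC, Vsig2 lies far to the left in EpiSC minus 2iL, and no point in NACL minus 2iL is called.

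Across the 15 arrays of the first set, Pearson's correlation was 0.947 between Gkn2 and Reg3g, 0.960 between Fcgbp and Vsig2 and 0.966 between Clu and Spon2, while Vsig2 and Spon2 correlated at 0.108. Tff3 correlated at 0.933 with Fcgbp, 0.908 with Reg3g, 0.877 with Gkn2 and 0.871 with Vsig2. These correlations describe 5 groups of arrays that share processing and slides, and the genes were chosen on part of them. Among all genes tested, those whose pattern over the 15 arrays was most like that of Gkn2 were Igfbp1 (0.977), a binding protein of insulin-like growth factors, AW112010 (0.972) and Ctse (0.969), the aspartic protease cathepsin E of gastric epithelium. Reg3g was most like Atp10b (0.988), 2210407C18Rik (0.978) and Cldn22 (0.974), a claudin of tight junctions. Tff3 was most like BC016579 (0.963), Tapbp (0.958), which loads peptide onto class I molecules, and the apolipoprotein Apoa1 (0.956).

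Fcgbp and Vsig2 shared 2 of their 3 closest genes, Rarres1 (0.970 with Fcgbp, 0.981 with Vsig2) and Ptpn18 (0.968 and 0.979). The remaining one was Espn (0.976), which bundles actin in microvilli, for Fcgbp and the claudin Cldn7 (0.980) for Vsig2. Clu was most like Nepn (0.973), Cd24a (0.971) and the retinol carrier Rbp4 (0.967), and Spon2 most like Sgce (0.980), Erlin1 (0.972) and Jak2 (0.971). A likeness of this kind says nothing of shared function or control.

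Beyond the 7 genes, a list of 37 other genes of mucosal secretion was followed: trefoil peptides, gastrokines, Reg lectins, mucins, products of goblet and Paneth cells, transcription factors of secretory cells, and the family relatives Spon1 and Vsig1. Of these, 35 had a probe and 26 passed the filter on dim probes, 6 of them through Mid or Late alone, which had to be higher there. The list was drawn up with earlier results of these data known, so its counts are not independent of them.

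From ESC to Diff, 8 of 26 listed genes rose and 0 fell by limma, with 22.4% of all genes called higher and 21% lower. At an unadjusted p under 0.05, 8 were higher and 2 lower. Leaving out the 6 genes that passed the filter through Mid or Late alone, 7 of 20 rose and 0 fell by limma. Among those 7, Tff1 and Zg16 passed the filter through Diff, Mid and Late alone, so their calls carry no support here. The largest changes were those of Creb3l1, a membrane-bound factor that drives secretory capacity (4.67 ± 0.41, SE; adjusted p = 5.09e-09), and of the forkhead factor Foxa3 (4.59 ± 0.45, SE; adjusted p = 2.73e-08), which had 1 of 3 ESC arrays well above background. The gastric trefoil peptide Tff1 was well above background on no ESC array and at least 5.75-fold higher in Diff, a description. The forkhead factor Foxa1, also well above background on no ESC array, was at least 5.31-fold higher (adjusted p = 1.02e-05). By normexp correction Tff1 was not called (0.83, adjusted p = 0.164). Of 9 listed mucins, 6 passed the filter and 1, Muc13, rose.

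From Diff to Mid, 10 of 26 rose and 1 fell, where 13% of all genes were called higher and 16% lower. The median difference of the 26 genes was 0.83, beside -0.03 over all genes. It includes 6 genes that had to be higher in Mid or Late to enter, so nothing is read from it. Without the 6 genes that passed the filter through Mid or Late alone, 6 of 20 rose and 1 fell. Both trefoil relatives were called higher, as were 4 of 7 goblet and Paneth products that passed the filter and 1 of 4 Reg lectins. So were 1 of 6 mucins, 1 of 5 transcription factors and the relative Vsig1. Of these, the products Agr2 and Dmbt1, the Reg lectin Reg3b and Vsig1 passed the filter through Mid or Late alone. Their calls therefore carry no support. The mucin was Muc5ac, whose call was lost under 10 of 17 alternatives, and 1 of the 4 products was Dmbt1, lost under 5 of 17, among them without Mid 3. With slide as a block, 8 rose and 3 fell.

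Tff1 showed the largest increase, reading 2.94, 1.93 and 4.29 in Mid, against -0.65, -3.85 and -2.39 in Diff (5.35 ± 0.75, SE; adjusted p = 1.32e-05), and its second probe gave 5.32 (adjusted p = 5.90e-06). Reg3b, the antibacterial lectin closest in kind to Reg3g, read -2.01, -2.24 and -0.53 in Mid and was well above background on no Diff array, which makes it at least 8.96-fold higher in Mid. Agr2, an enzyme that folds mucins, was at least 8.74-fold higher, and the gastric membrane protein Vsig1 at least 5.42-fold higher. Reg3b entered the test through Mid alone, and Agr2 and Vsig1 through Mid and Late alone, so their calls carry no support and only their levels are given. Tff1, which Diff also admitted, passed the threshold under every alternative run for this comparison.

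Others that rose, named after their values were seen, were Zg16, a lectin of goblet cell granules (3.16 ± 0.59, SE; adjusted p = 3.44e-04), the goblet cell product Spink4 (3.64 ± 0.80, SE; adjusted p = 0.00155) and the goblet cell factor Spdef (2.55 ± 0.51, SE; adjusted p = 6.30e-04). The gene that fell was Ang4, an antimicrobial ribonuclease of Paneth cells (-1.27 ± 0.48, SE; adjusted p = 0.0497), a call lost under 8 of 17 alternatives. The gel-forming mucins Muc2 and Muc6 did not enter the test, Muc2 for failing the filter and Muc6 because no probe was matched to it. Spdef averaged -1.04 in ESC, -2.15 in Diff and 0.40 in Mid, and its ESC and Diff arrays overlapped. The Mid arrays of Spink4, at -1.02, -0.25 and -0.84, lay within its XEN range of -2.70 to 1.64.

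**Figure D3:**
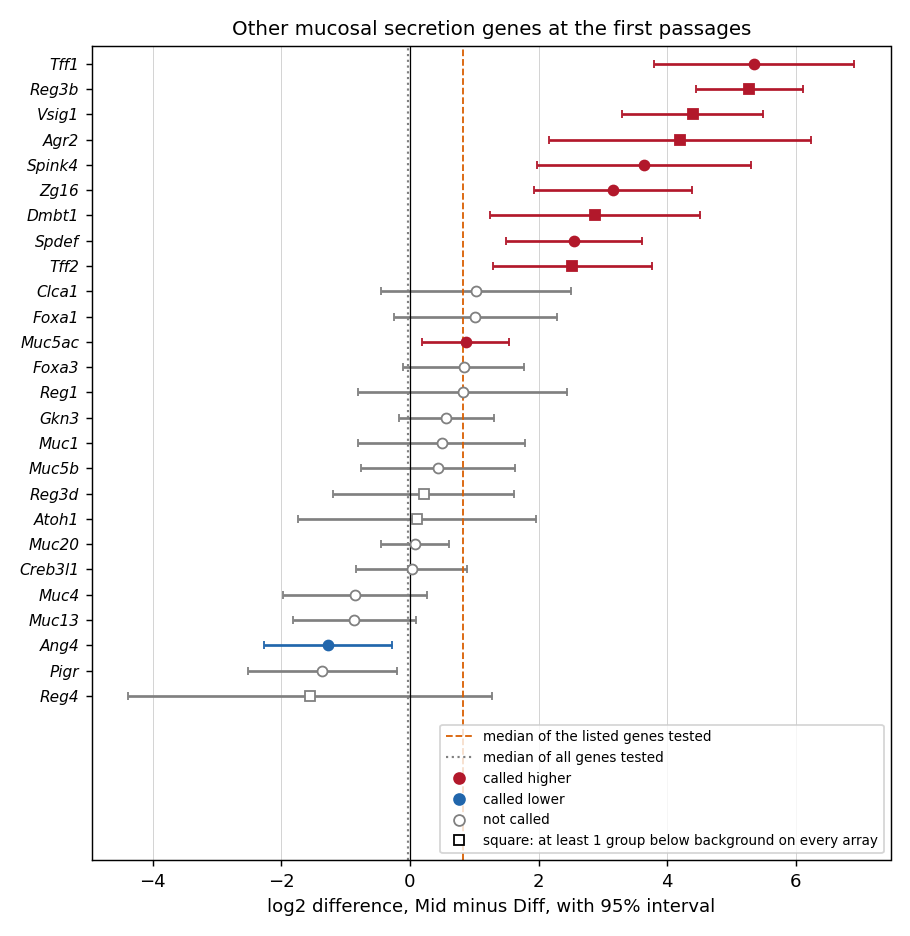
Mid minus Diff difference on the log2 scale with its 95% interval (horizontal axis) for the 26 listed genes tested (vertical axis); filled points passed the threshold, squares mark genes with at least 1 of the groups below background on every array, the dashed line is the median of the listed genes and the dotted line that of all genes. The 4 largest differences belong to Tff1, Reg3b, Vsig1 and Agr2, and 15 of the 26 genes are open points. Reg3b, Vsig1 and Agr2 entered through Mid or Late alone, and the dashed line includes all 6 genes that did.

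From Mid to Late, 1 of 26 fell and 0 rose by limma, with 3.72% of all genes called higher and 3.27% lower; at an unadjusted p under 0.05, 0 were higher and 3 lower. The gene that fell was Reg3b, which read -4.07, -5.04 and -4.43 in Late, 1 of 3 arrays being well above background, against -2.01, -2.24 and -0.53 in Mid (a difference of -2.92). Reg3b had entered the test through Mid alone, so its fall is a description. Without the 6 genes that passed the filter through Mid or Late alone, 0 of 20 rose and 0 fell by limma. The replicate numbers of Mid and Late were taken as pairs from weak correlations in the data, which nothing in the labels states. Arrays 1 of both groups also share slide 1, and arrays 2 share slide 3. With the replicate block on these groups, 2 genes fell. Reg3g was likewise lower on every Late array than on every Mid array, while Tff1, at 3.73, 1.32 and 3.38 in Late, overlapped its Mid arrays.

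In XEN minus ESC, 7 of 26 listed genes were higher and 3 lower, beside 29.4% and 22.5% of all genes. Reg3d and Atoh1 entered the test through XEN alone, and without these 2 genes, 5 of 24 were higher and 3 lower. The largest differences were those of Foxa3 (4.33 ± 0.45, SE; adjusted p = 2.82e-08), Foxa1 (at least 6.08-fold, adjusted p = 3.07e-06), the Reg lectin Reg3d (at least 7.52-fold, a description) and Spink4 (2.79 ± 0.80, SE; adjusted p = 0.00548). Reg3d was well above background on all 3 XEN arrays and on no ESC, Diff, Mid or Late array, the reverse of Reg3b, which was so on no XEN array. Spink4 read -2.55, -2.70 and 1.64 in XEN, and it was not called without XEN 3, on the first scan day alone, or with only XEN and ESC in the fit. With median centring, 9 were higher and 1 lower.

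In ADE minus EpiSC, 7 of 26 were higher and 1 was lower, beside 16.7% and 21.2% of all genes. They included Reg4, a secreted Reg lectin, at 1.33, -2.42, 2.02 and 0.57 in ADE, against -6.75, -4.12 and -5.59 in EpiSC with 1 of 3 arrays well above background, a difference of 5.86. Reg4 entered the test through ADE alone, and without it, 6 of 25 were higher and 1 lower. Foxa3 (4.47 ± 0.42, SE; adjusted p = 2.49e-08), Foxa1 (4.11 ± 0.58, SE; adjusted p = 5.16e-06) and Creb3l1 (3.34 ± 0.39, SE; adjusted p = 4.27e-07) followed. Tff1, Reg3b and Vsig1 were well above background on no ADE array, as were Gkn2 and Reg3g.

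For 3 of the 7 genes, family members from the list lie within 8 genes on the chromosome in the RefSeq annotation of GRCm38.p6; they were picked for position after their values were seen. On chromosome 6, Gkn2 lies directly between Gkn1 and Gkn3. Gkn1 did not pass the filter, and Gkn3 was well above background on every array of all 9 groups, with means of -1.04 in Mid and -1.60 in Diff, a difference that did not pass the test (adjusted p = 0.253). Elsewhere on chromosome 6, 5 Reg genes precede Reg3g in the order Reg3b, Reg3d, Reg3a, Reg2 and Reg1. Reg3b was read in Mid, Reg3d in XEN, Reg2 and Reg3a did not pass the filter, and Reg1 had a mean of -3.49 in Mid, against -4.31 in Diff, with 2 of 3 arrays well above background in each. On chromosome 17, Tff3 is followed by Tff2 and Tff1. Tff2 was well above background on 2 of 3 Mid arrays and on no Diff array (at least 2.53-fold higher in Mid, adjusted p = 0.00269) and on all 3 2iL arrays, whereas Tff1 was not above background in 2iL.

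**Figure D4:**
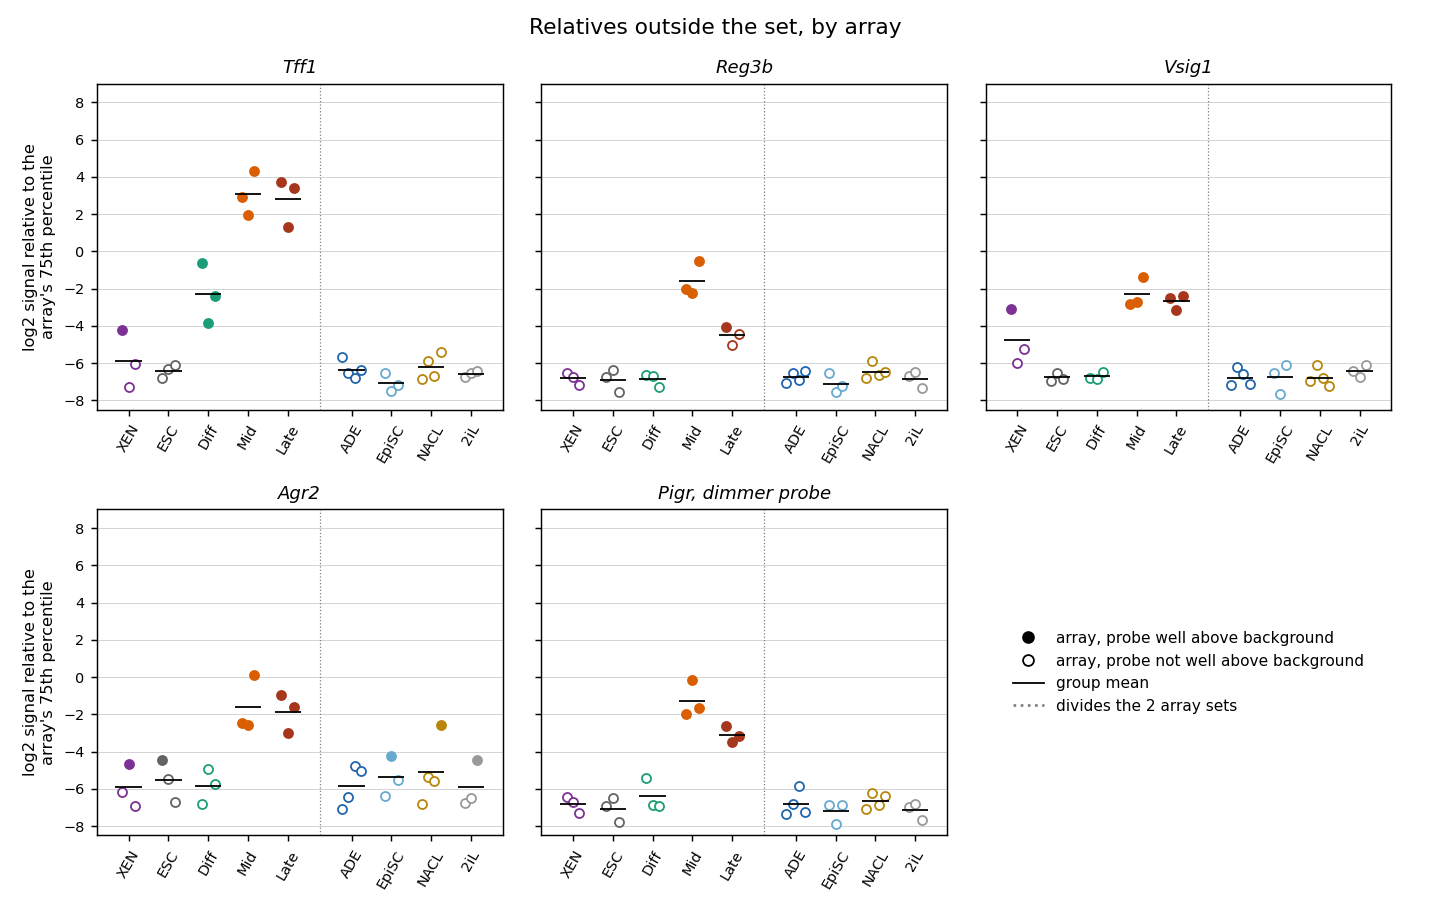
Log2 signal relative to the array's 75th percentile (vertical axis) for Tff1, Reg3b, Vsig1, Agr2 and the dimmer probe of Pigr in the 9 groups (horizontal axis), 1 point per array, drawn as in the plot of the 7 genes. Points well above background are found on every Mid array of all 5 probes, and the Late arrays of Reg3b and of the Pigr probe lie below every Mid array.

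Probes of the same gene did not always tell the same story. Pigr, the receptor that carries immunoglobulin A through epithelia into mucus, had a bright probe at 5.89, 6.25 and 3.75 in Mid, against 6.10, 6.40 and 7.46 in Diff, that was well above background in all 9 groups. Its dimmer probe read -1.99, -0.17 and -1.64 in Mid and -2.62, -3.49 and -3.18 in Late, and was well above background on no array of the other 7 groups. By that probe Pigr was at least 11.2-fold higher in Mid than in Diff and differed by -1.83 for Late minus Mid. It was picked after its values were seen and is above background in Mid and Late alone, so these are descriptions. The bright probe stood for Pigr in the counts above, and which of them reads the transcript cannot be told from the files.

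Markers of other cell types were set beside these results. Of 5 hepatocyte markers, 3 were well above background on every Diff, Mid, Late and XEN array, and the summed level of all 5 ran from 4.33 to 4.86 in Mid and 5.55 to 5.78 in Late, against 3.02 to 3.56 in Diff. It was thus higher in Mid and Late than in Diff, and in XEN, at 3.69 to 4.44, it overlapped Mid; Alb was well above background on no Late, Diff or XEN array, and its part in these results was not tested. The summed level of the 8 gut epithelium markers ran from 2.01 to 2.68 in Mid and from 1.68 to 2.09 in Late. In Diff it ran from 0.92 to 1.49 and in ESC from 3.32 to 4.11. Of these 4 groups it was thus highest in ESC and lowest in Diff, and Gkn2 was well above background on no array of either. The part of this sum in these results was not tested. Of 5 fibroblast markers, 1 was well above background on every Mid array, 1 on every Late array and 2 on every Diff array. Postn and Dcn were so on no Mid, Late or Diff array. The summed level of all 5 ran from -1.91 to -0.77 in Mid and -1.87 to -1.34 in Late, against -1.30 to 0.24 in Diff. The 3 macrophage markers with a probe were well above background on all arrays of ESC, Diff, Mid and Late, and their summed level ran from 2.51 to 2.73 in Mid and 2.17 to 2.69 in Late, against 1.21 to 2.62 in Diff.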

How the data were processed

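The deposited scanner files hold 59305 spots on each of 29 arrays. Per the file headers, the intensity used is the processed signal, from which the authors' Agilent Feature Extraction had already removed background. The headers give versions 11.0.1.1 for the first array set and 12.0.1.1 for the second, while the submitters' processing notes name 9.1. Irregular spots (132 to 243 per array) and control spots were left out, no spot was saturated, and spots of a probe were averaged, giving 55681 probes. Of these, 27636 matched 1 symbol through their accession in RefSeq (GRCm38.p6), 33 several and 28012 none.

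From the deposited intensity, log2 values were computed and each array's 75th percentile (152 to 366 before the log) subtracted. The brightest probe stood for a gene, and genes well above background on every array of at least 1 group were kept. One limma model of 9 group means with 20 residual degrees of freedom gave differences, standard errors and p-values, adjusted by Benjamini-Hochberg over 16332 genes with a threshold of 0.05. It was tested on simulated data. The authors' deposited series matrix (31982 probes) served as an alternative; its columns appear to be log2 values from their medians, 5.94 to 5.95, and correlated at 0.909 to 0.937 with the scanner values, but its scale and centring are not given in the sources used here, and it held 6 of the 7 genes.

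The 7 genes, the mucosal list and the markers were chosen with earlier results of these data known. Named from the mucosal list are, per comparison, at most 4 called genes with the largest difference, and for likeness the 3 genes of highest correlation; further names are said to have been chosen after their values were seen. Deviations of same-numbered Mid and Late arrays from their group means correlated at 0.218, 0.129 and 0.141, so those numbers were taken as pairs. In the other comparisons at least 1 pair was at or below 0.1. The number of arrays limits the precision. The alternatives were quantile normalization, median centring, normexp correction with an offset of 50, the series matrix, no filter, the mean of all probes, the compared groups alone, slide, scan day or replicate as a block, and leaving out each array. The first scan day alone and the replicate block on Mid and Late alone were added after seeing the data. The software was Python 3.11.15 with numpy 2.4.6, pandas 2.3.3 and matplotlib 3.10.9, and R 4.3.3 with limma 3.58.1.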

Additional observations from a re-analysis of the deposited data

How the results depend on the processing

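The numbers of the 7 genes called did not change by over 1.5 times under any alternative run, single calls that did change being given in the report. Leaving out 1 array at a time, 2 to 4 were called in XEN minus ESC, 3 to 3 in ADE minus EpiSC, 3 to 4 in EpiSC minus 2iL and 0 to 0 in NACL minus 2iL, and 6 to 7 had every Mid array above every Diff array. Clu had small differences that reversed: Diff minus ESC was 0.20, with a range from -0.25 (without Diff 1) to 0.49 (without Diff 3) on leaving out 1 array, and Late minus Mid was -0.14, with a range from -0.36 (without Late 1) to 0.17 (without Late 2), and 0.07 without Mid 1. Of the mucosal list, 8 genes were called in Diff minus ESC and 5 by normexp correction. In Late minus Mid 1 was called, against 2 with quantile normalization, with normexp and on the first scan day alone, 3 with the series matrix and 0 with the compared groups alone. In XEN minus ESC 10 were called, against 6 by normexp, 5 with the series matrix and 6 on the first scan day alone. The cause was not tested. Leaving out 1 array gave 6 to 9 listed genes for Diff minus ESC, 9 to 11 for Mid minus Diff, 1 to 2 for Late minus Mid, 8 to 10 for XEN minus ESC and 7 to 8 for ADE minus EpiSC. In Mid minus Diff, 9 of 9 called genes rose with scan day as a block. With the replicate block on all arrays, 3 of the 7 genes were called in XEN minus ESC, 3 in ADE minus EpiSC, 0 in NACL minus 2iL and 3 in EpiSC minus 2iL, as without it; the replicate block on Mid and Late alone called 2 listed genes in Late minus Mid. Median centring moved the median of all genes to 0.68 in XEN minus ESC and 0.32 in Diff minus ESC, from near 0. Over all genes, NACL minus 2iL had 1388 calls, against 849 with median centring, 450 with the compared groups alone and 238 with cell line as a block. Scan day could not be a block in the second set, which has 1 scan day. For Gkn2 and Reg3g, signals near background limit the size of every difference, which is why bounds are given.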
